A study of Mus musculus with 6 samples.

Results

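The genes followed in mouse kidney after cisplatin were 10 enzymes that make, recycle or consume NAD: Kmo, Kynu, Haao, Acmsd, Qprt, Nadsyn1, Nampt, Nmnat1, Nnmt and Cd38. They were taken by symbol from a deposited table of 19087 genes, and all 10 passed the filter on low counts with which 14392 genes were tested. The cisplatin group was 3 wild-type kidney samples from mice injected with cisplatin into the peritoneal cavity, a platinum drug that injures the tubule, and the control group was 3 wild-type kidney samples labelled as control. RNA sequencing of both groups was meant to find molecules that sensitize mice on a high-fat diet to acute kidney injury. The sources used here do not give strain, sex, age, diet, dose or time after injection. They also do not say whether each sample came from its own animal, so a p-value reflects only sample-to-sample spread, part of which may be technical.

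NAD is the electron carrier of energy metabolism and also a substrate that poly-ADP-ribose polymerases, sirtuins and glycohydrolases consume. Kidney tubule cells make it de novo from tryptophan, through the kynurenine pathway and quinolinate, and by salvage, in which nicotinamide released by the consumers is built back into NAD. The proximal tubule is one of the few sites outside the liver that expresses the de novo enzymes, and low kidney NAD is a known feature of acute kidney injury.

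The libraries held between 16725665 and 18523666 estimated read counts. On the first principal component, 82.5% of the variance, the cisplatin libraries lay at -46.5, -54.7 and -32.3 and the controls between 42.5 and 46.5, so cisplatin replicate 3 was the nearest to the controls. The summed CPM (counts scaled to library size with TMM factors) of 10 proximal tubule markers was 5016, 3533 and 7650 in cisplatin replicates 1 to 3, against 16830 to 17743 in the controls. Of these markers 8 were called lower and none higher, with a median log2 fold change of -1.09. The summed CPM of 5 tubule injury markers was 9502, 15334 and 6625 in cisplatin replicates 1 to 3, against 685 to 811 in the controls. In such tissue samples, fewer cells of a type and less RNA per cell cannot be told apart. Thick limb and distal tubule markers fell in 5 of 5 genes and endothelial markers in 6 of 6. Collecting duct markers fell in 3 of 5 genes and rose in 1. Podocyte markers rose in 3 of 4 genes and fell in none, with summed CPM of 300 to 366 in cisplatin and 235 to 270 in controls. Beside these and the later marker counts stand the 22.2% of all tested genes called lower and the 23.1% called higher. The endothelial log2 fold changes ran from -1.05 for Kdr to -0.24 for Egfl7. Red cell markers summed to 0.303 to 0.508 CPM in cisplatin and 55.5 to 710 CPM in controls. With scaling to library size alone, the median log2 fold change of all genes lay 0.136 higher and 67.0% of called genes were higher, against 51.0% with TMM.

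Among the 10 NAD genes, 6 fell in cisplatin kidneys, where 22.2% of all tested genes did, and 2 rose, where 23.1% of all tested genes did. In either direction 8 were called, beside 45.4% of all tested genes. The genes that fell were the de novo enzymes Kmo, Haao and Qprt, the last steps Nadsyn1 and Nmnat1, and Acmsd, whose product leads away from the de novo route. Those that rose were the nicotinamide enzymes Nampt and Nnmt. Calls rest on the quasi-likelihood test of edgeR with p-values adjusted over all 14392 genes and a threshold of 0.05. The median log2 fold change of the 10 was -0.44, against 0.01 over all genes tested. The 6 that fell had every cisplatin library below every control, as 28.4% of all genes did, and the 2 that rose had every cisplatin library above every control, as 29.2% of all genes did. The lower count was 3 without cisplatin replicate 1 or without control replicate 1. There, 2281 of 14584 and 2508 of 14595 tested genes were lower. The higher count was 1 without cisplatin replicate 1, cisplatin replicate 2 or control replicate 1. In these fits, 2486 of 14584, 2856 of 14560 and 2654 of 14595 tested genes were higher.

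**Figure D1:**
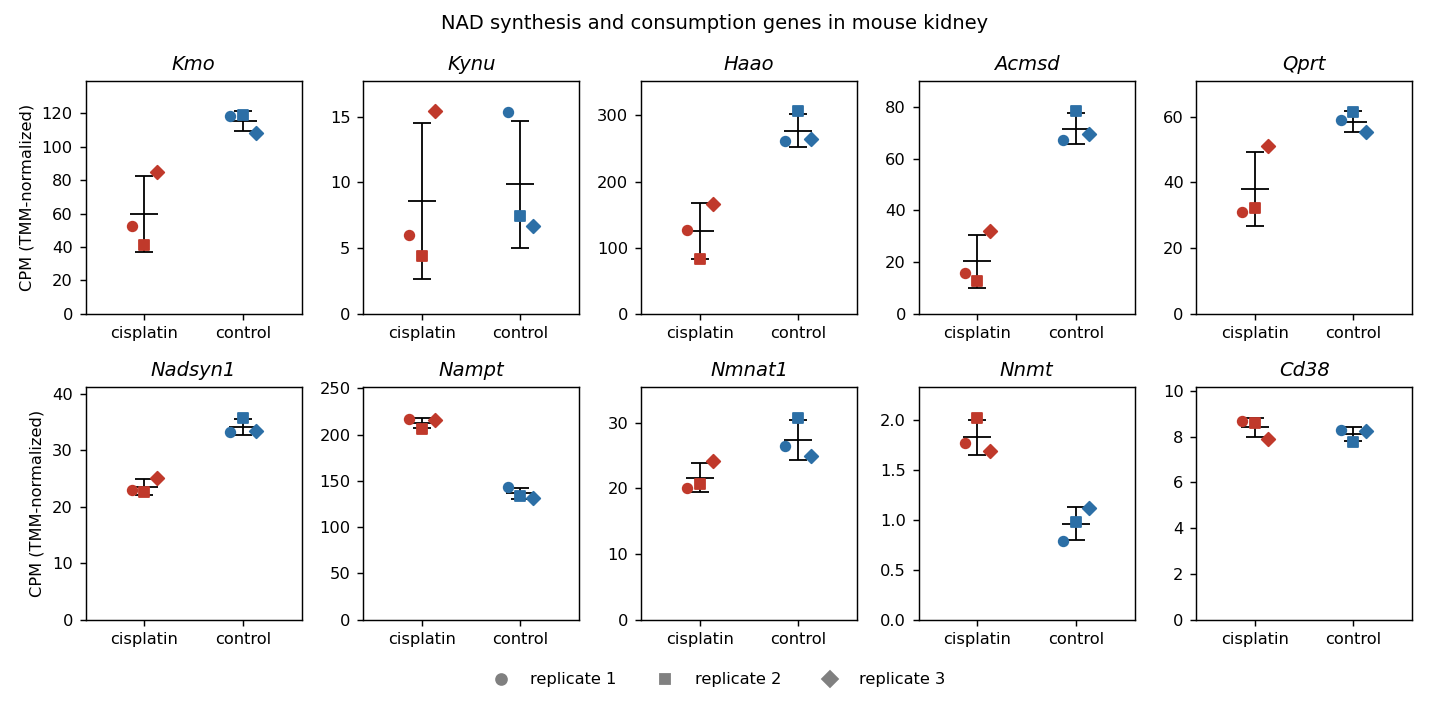
TMM-normalized CPM of each of the 10 genes (vertical axes, from 0) in the cisplatin and control libraries; symbols mark replicates, and the black bars are the mean and SD of 3 libraries. Kmo, Haao, Acmsd and Qprt are lower in cisplatin with replicate 3 the highest of its group, Nampt and Nnmt are higher, and the groups overlap for Kynu and Cd38.

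On the scale that allows genes to be compared with each other, TPM (abundance corrected for transcript length, with the same total in each library), Haao had the highest level of the 10 in both groups, 181 ± 52 in cisplatin and 347 ± 23 in controls (SD, n = 3 each). In cisplatin, Nampt came next at 87.1 ± 4.0 TPM, then Qprt at 60.4 ± 14.2, Kmo at 44.1 ± 14.3, Nmnat1 at 18.1 ± 1.0, Nadsyn1 at 17.7 ± 0.4 and Acmsd at 16.2 ± 7.2 TPM. In controls, the order after Haao was Qprt at 78.9 ± 2.2 TPM, Kmo at 72.8 ± 2.6, Acmsd at 49.1 ± 2.8, Nampt at 47.0 ± 2.6, Nadsyn1 at 21.5 ± 0.6 and Nmnat1 at 19.3 ± 1.6 TPM. Nampt had rank 2 of the 10 in cisplatin and rank 5 in controls, while Acmsd had rank 7 in cisplatin and rank 4 in controls. The lowest levels in both groups were those of 3 genes. Kynu averaged 6.83 ± 3.86 TPM in cisplatin and 6.61 ± 3.09 TPM in controls, Cd38 5.23 ± 0.55 TPM in cisplatin and 4.25 ± 0.27 TPM in controls, and Nnmt 3.34 ± 0.43 TPM in cisplatin and 1.47 ± 0.25 TPM in controls. In cisplatin the ranges of Qprt and Kmo overlapped, as did those of each neighbouring pair in the run Nmnat1, Nadsyn1, Acmsd, Kynu and Cd38, and in controls only the pairs Acmsd and Nampt, and Nadsyn1 and Nmnat1, overlapped. TPM in cisplatin lay a median of 0.24 higher on the log2 scale than the edgeR fold changes, over all tested genes. A single gene, Kap, an androgen-regulated gene of the proximal tubule, held 12.0% to 13.6% of all TPM in the controls, and the top gene of the cisplatin libraries, Gpx3, a secreted glutathione peroxidase gene, held 4.27% to 6.74%. Fold changes below are therefore those of edgeR on TMM-normalized counts.

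The kynurenine pathway to quinolinate was lower at each of its abundant steps. Kmo (Entrez 98256, chromosome 1, 175632193 to 175660853, GRCm38.p6) encodes kynurenine 3-monooxygenase, the mitochondrial outer membrane enzyme that commits kynurenine to NAD synthesis. Kmo had 52.6, 40.9 and 84.9 CPM in cisplatin replicates 1 to 3, against 118, 119 and 108 CPM in control replicates 1 to 3. The groups did not overlap, and cisplatin replicate 3 was the highest of its group. The log2 fold change was -0.96 (SE 0.25; edgeR adjusted p = 0.0189), and it was -1.31 without cisplatin replicate 3. The call was lost without cisplatin replicate 1 (edgeR adjusted p = 0.0638) or control replicate 1 (0.0540).

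Haao (Entrez 107766, chromosome 17, 83831348 to 83848981) encodes the dioxygenase that opens the ring of 3-hydroxyanthranilate and yields the unstable intermediate ACMS, which closes by itself to quinolinate. Haao had 127, 82.2 and 166 CPM in cisplatin, against 261, 306 and 264 CPM in controls. All 3 cisplatin libraries lay well under the lowest control. Its log2 fold change was -1.15 (SE 0.24; edgeR adjusted p = 0.00729), with -1.41 to -0.92 as the range when each library was left out in turn, and the call was kept in each.

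Acmsd (Entrez 266645, chromosome 1, 127729413 to 127767564) encodes the decarboxylase that takes ACMS away from quinolinate and so limits de novo NAD synthesis. It showed the largest change of the 10 genes. Acmsd had 15.9, 12.8 and 31.9 CPM in cisplatin, against 67.1, 78.3 and 69.4 CPM in controls. Even the highest cisplatin library, replicate 3, was under the lowest control, and the log2 fold change was -1.83 (SE 0.32; edgeR adjusted p = 0.00457), or -2.32 without cisplatin replicate 3. An antisense gene, 2900009J06Rik, overlaps exons of Acmsd in the GENCODE annotation, and whether the counting used strand is unknown, so the reads of Acmsd and its antisense partner cannot be told apart.

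Qprt (Entrez 67375, chromosome 7, 127107770 to 127122029) encodes quinolinate phosphoribosyltransferase, which turns quinolinate into nicotinate mononucleotide and is the step at which the pathway enters pyridine nucleotides. Qprt had 30.8, 32.3 and 51.0 CPM in cisplatin, against 59.0, 61.4 and 55.3 CPM in controls. Cisplatin replicates 1 and 2 were clearly lower, while replicate 3 came close to the lowest control. The log2 fold change was -0.62 (SE 0.19; edgeR adjusted p = 0.0293), and it was -0.90 (adjusted p = 2.7e-05) without cisplatin replicate 3. The call was lost when any other library was left out (edgeR adjusted p = 0.0587 to 0.0917). In TPM the groups overlapped, since cisplatin replicate 3 had 76.7 TPM and control replicate 3 had 76.4 TPM.

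Kynu (Entrez 70789, chromosome 2, 43555258 to 43683048), the kynureninase gene whose product makes 3-hydroxyanthranilate, was the member of the pathway that did not pass the test. Kynu had 5.95, 4.41 and 15.4 CPM in cisplatin, against 15.4, 7.47 and 6.65 CPM in controls. One library of each group, cisplatin replicate 3 and control replicate 1, lay far above the others, and the groups overlapped. The log2 fold change was -0.21 with a 95% interval of -1.50 to 1.09 (edgeR adjusted p = 0.781). That interval holds the values of Kmo, Haao and Qprt and also positive values. It was -0.93 without cisplatin replicate 3 (adjusted p = 0.115) and 0.27 without control replicate 1 (adjusted p = 0.726).

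**Figure D2:**
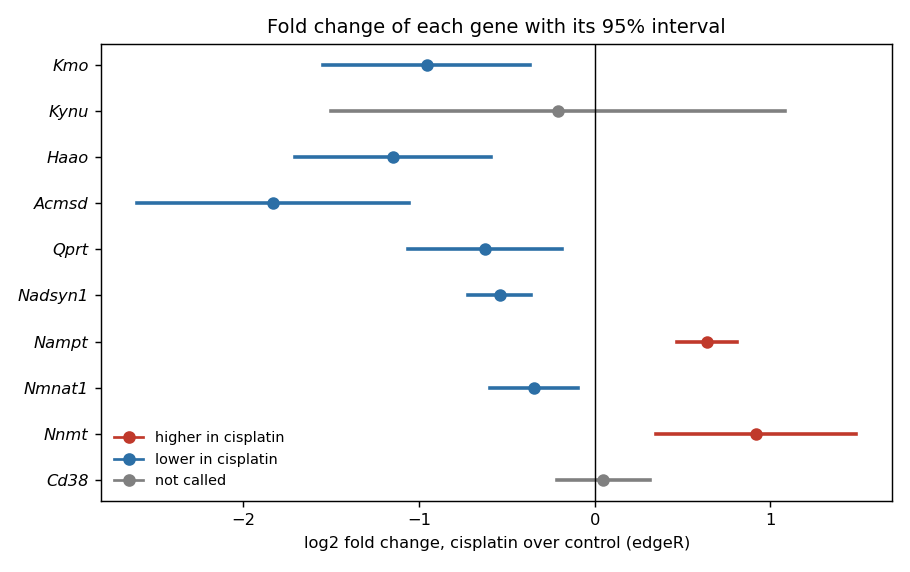
Log2 fold change of cisplatin over control for each gene (points) with its 95% interval (lines) from edgeR on 3 against 3 libraries; red marks genes called higher, blue lower and grey not called. Acmsd lies lowest at -1.83 and Nnmt highest at 0.92, and the widest interval is that of Kynu.

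The start regions of Kmo, Haao and Qprt, which fell, and of Nampt, which rose, are printed to set genes that moved in opposite directions side by side. Windows of 7 of the 10 genes were used from the RefSeq promoter table (GRCm38.p6), all but Kynu, Acmsd and Nnmt. Each line gives the 250 bases before the annotated start on the gene's strand, 5′ to 3′, and capitals mark matches on either strand to AGGTCA (the core motif of nuclear receptors, read TGACCT on the other strand) or GTTAAT (part of the HNF1 motif, read ATTAAC). The Haao window starts from a RefSeq start site that lies inside the longest annotated span of the gene.
Kmo, chr1:175631943-175632192, plus strand: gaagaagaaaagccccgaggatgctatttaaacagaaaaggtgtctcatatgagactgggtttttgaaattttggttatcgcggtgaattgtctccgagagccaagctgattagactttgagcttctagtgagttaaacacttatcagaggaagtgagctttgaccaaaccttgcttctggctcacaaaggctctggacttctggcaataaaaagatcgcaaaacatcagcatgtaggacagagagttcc
Haao, chr17:83846791-83847040, minus strand: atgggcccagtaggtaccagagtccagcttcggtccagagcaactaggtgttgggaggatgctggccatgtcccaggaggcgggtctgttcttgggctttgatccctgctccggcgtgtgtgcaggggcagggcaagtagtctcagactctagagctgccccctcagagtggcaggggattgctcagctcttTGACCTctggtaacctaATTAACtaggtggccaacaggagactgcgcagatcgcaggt
Qprt, chr7:127122030-127122279, minus strand: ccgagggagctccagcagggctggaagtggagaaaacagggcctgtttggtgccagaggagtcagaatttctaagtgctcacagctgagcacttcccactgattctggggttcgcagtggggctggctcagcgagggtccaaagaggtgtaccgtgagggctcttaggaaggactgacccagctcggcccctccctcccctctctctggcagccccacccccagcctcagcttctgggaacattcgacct
Nampt, chr12:32820085-32820334, plus strand: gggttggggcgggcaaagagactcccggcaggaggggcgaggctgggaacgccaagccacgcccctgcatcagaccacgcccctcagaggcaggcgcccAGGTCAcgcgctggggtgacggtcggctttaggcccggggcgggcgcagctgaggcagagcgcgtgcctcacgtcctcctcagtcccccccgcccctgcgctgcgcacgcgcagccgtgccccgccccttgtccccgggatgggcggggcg

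AGGTCA was found in the windows of Haao (starting 58 bases before the start site) and Nampt (151 bases before it), and 14.0% of all 32851 promoter windows of that length hold it. Haao also held GTTAAT 41 bases before its start site, a motif found in 6.43% of all windows. Neither CACGTG (the E-box of clock proteins and MYC, in 6.02% of windows) nor TGANTCA (the AP-1 motif, in 6.75%) occurred in a window of the 7 genes. These matches are letters only and show no binding. The windows differed in base composition: GC was 42.8% for Kmo, 58.4% for Haao, 60.8% for Qprt and 75.6% for Nampt, against a median of 52.4% over all windows. The windows of Nadsyn1 and Nmnat1, genes that fell, lay between those of Qprt and Nampt in GC. That of Cd38, which was not called, lay between those of Kmo and Haao. A link of GC to the direction of change was not tested.

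Of the last enzymes of NAD synthesis, Nadsyn1 and Nmnat1 fell, by less than Kmo, Haao and Acmsd did. Nadsyn1 (Entrez 78914, chromosome 7, 143795589 to 143822862) encodes NAD synthetase, which amidates the de novo product to NAD. Nadsyn1 had 22.9, 22.5 and 25.1 CPM in cisplatin, against 33.3, 35.8 and 33.5 CPM in controls. Both groups were tight and did not overlap, and the log2 fold change was -0.54 (SE 0.08; edgeR adjusted p = 0.000964). Nmnat1 (Entrez 66454, chromosome 4, 149467569 to 149485210) encodes the nuclear adenylyltransferase through which de novo and salvage mononucleotides both pass. Nmnat1 had 20.04, 20.7 and 24.2 CPM in cisplatin, against 26.5, 30.8 and 25.0 CPM in controls. Cisplatin replicate 3 and control replicate 3 nearly met, and in TPM the groups overlapped. The log2 fold change was -0.34 (SE 0.11; edgeR adjusted p = 0.0328), a call lost without cisplatin replicate 1, cisplatin replicate 2, control replicate 1 or control replicate 2 (0.0653 to 0.121). It was also lost with scaling to library size alone (log2 fold change -0.21, adjusted p = 0.112) and with the replicate number as a block (adjusted p = 0.0647). Nmnat3, another adenylyltransferase gene of this step, was named after its values were seen and did not fall. Nmnat3 averaged 18.4 ± 2.5 CPM in cisplatin and 18.3 ± 0.4 CPM in controls (log2 fold change 0.007, edgeR adjusted p = 0.964).

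Nampt, the gene of the salvage enzyme, rose in every cisplatin library. It encodes nicotinamide phosphoribosyltransferase, the rate-limiting enzyme that turns nicotinamide into nicotinamide mononucleotide (Entrez 59027, chromosome 12, 32820335 to 32853369). Nampt had 216, 206 and 215 CPM in cisplatin, against 143, 134 and 132 CPM in controls. Its cisplatin libraries were as tight as its controls, and replicate 3 did not stand apart. The log2 fold change was 0.64 (SE 0.07; edgeR adjusted p = 0.00033), a 1.56-fold higher level, and it stayed between 0.61 and 0.78 over all 13 alternatives tried, each of which called it.

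Nnmt (Entrez 18113, chromosome 9, 48538002 to 48607655) encodes nicotinamide N-methyltransferase, which methylates nicotinamide and so removes it from salvage. It was the least abundant of the 10, with 35, 40 and 30 estimated counts in cisplatin and 13, 16 and 18 in controls. Nnmt had 1.77, 2.03 and 1.69 CPM in cisplatin, against 0.79, 0.98 and 1.12 CPM in controls. The groups did not overlap, and the log2 fold change was 0.92 (SE 0.25; edgeR adjusted p = 0.0168), a call lost without cisplatin replicate 1 (0.0507), cisplatin replicate 2 (0.0568) or control replicate 1 (0.0664). Of 6 fibroblast and pericyte markers, Pdgfra and Pdgfrb were called higher and the others were not called. The summed CPM of all 6 was 325 to 562 in cisplatin and 279 to 348 in controls, ranges that overlap. Of 3 hepatocyte markers 2 were called lower, with summed CPM of 25.9 to 55.0 in cisplatin and 111 to 137 in controls. Most of that sum was Ttr, with 22.4 to 49.0 CPM in cisplatin and 102 to 130 CPM in controls, and Apoa1 was not called. The part of either cell type in the Nnmt level was not tested.

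Cd38 (Entrez 12494, chromosome 5, 43868809 to 43912374) encodes the membrane glycohydrolase that consumes NAD and is found on immune cells and endothelium. It was nearly level between the groups. Cd38 had 8.68, 8.61 and 7.89 CPM in cisplatin, against 8.30, 7.78 and 8.26 CPM in controls. The groups overlapped, and the log2 fold change was 0.05 with a 95% interval of -0.21 to 0.31 (edgeR adjusted p = 0.746). None of the 13 alternatives called it, the lowest adjusted p being 0.168, although in TPM its 3 cisplatin libraries (4.59 to 5.55) all lay above the controls (3.94 to 4.42). Among the cells that can carry Cd38, the summed CPM of 8 macrophage and monocyte markers was 228 to 265 in cisplatin and 181 to 241 in controls. Cd68 and C1qa were called higher and Csf1r, Ly6c2 and Ccr2 lower. Cd68 alone had 62.0 to 86.6 CPM in cisplatin and 7.87 to 10.4 CPM in controls, so the higher sum rests on that gene. B and plasma cell markers summed to 1.87 to 3.04 CPM in cisplatin and 5.94 to 7.02 in controls, with Ms4a1 at 0 in cisplatin, and endothelial markers to 264 to 306 CPM in cisplatin and 423 to 432 in controls. Neutrophil markers, of which 3 of 4 tested were called higher, summed to 6.51 to 7.75 CPM in cisplatin and 2.93 to 4.35 in controls, and T and NK cell markers, of which 2 of 3 tested were called lower, to 3.78 to 4.74 CPM in cisplatin and 6.61 to 16.6 in controls. The part of these cells in the Cd38 level was not tested.

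The genes that fell varied within the cisplatin group. Relative to the control mean, cisplatin replicate 1 lay at -1.13, -1.13, -2.17 and -0.93 on the log2 scale for Kmo, Haao, Acmsd and Qprt. Cisplatin replicate 2 lay at -1.50, -1.75, -2.48 and -0.86 for the same genes, and replicate 3 at -0.44, -0.74, -1.17 and -0.20. Replicate 3 was the nearest to the controls for each of these 4 genes, and the lowest library was replicate 2 for Kmo, Haao and Acmsd and replicate 1 for Qprt. Replicate 3 was also the nearest for Nadsyn1 (-0.58, -0.60 and -0.44 in cisplatin replicates 1 to 3) and Nmnat1 (-0.45, -0.41 and -0.18), by smaller steps. Kynu too was highest there, at 0.65, with -0.72 in cisplatin replicate 1 and -1.16 in replicate 2. The same library had the highest sum of proximal tubule markers and the lowest sum of injury markers of the 3. For Nampt (0.67, 0.60 and 0.66) and Nnmt (0.87, 1.07 and 0.81) the 3 cisplatin libraries lay close together. The part of the proximal tubule content in these differences was not tested.

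**Figure D3:**
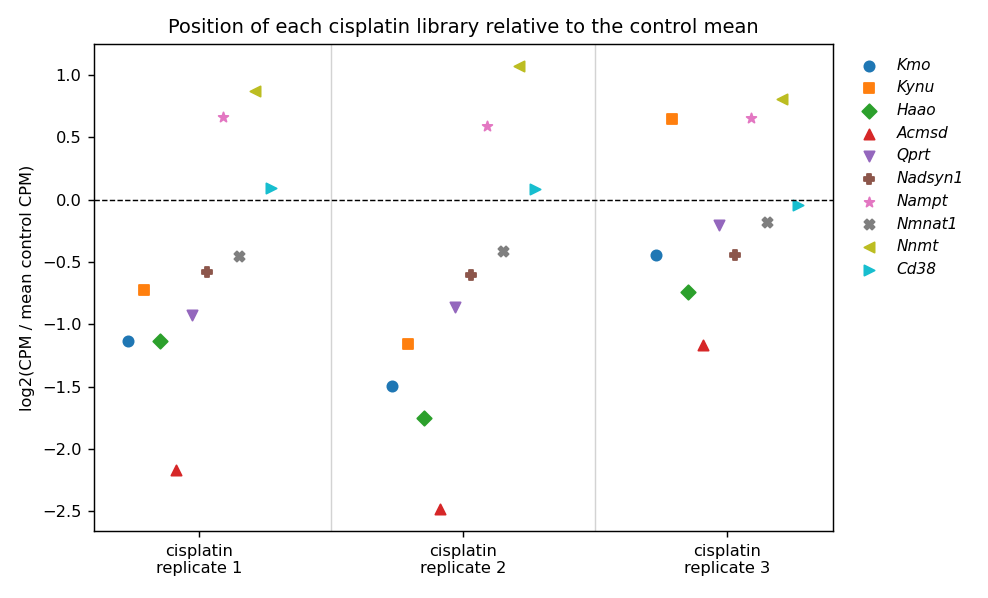
Log2 ratio of each gene's CPM to its mean over the 3 controls (vertical axis) in cisplatin replicates 1, 2 and 3; each symbol is 1 gene and the dashed line is the control mean. The 6 genes that fell are nearest to the line in replicate 3, where Kynu lies above it at 0.65, while Nampt and Nnmt stay at about the same height.

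Ratios of 2 genes within a library hardly depend on how libraries are scaled. They were taken after adding 0.1 to each TPM, and 4 of them were compared with two-sided exact permutation tests, for which 3 against 3 samples allow no p below 0.1. Acmsd and Qprt draw on the same branch point. The ratio of Acmsd to Qprt in TPM was 0.264, 0.204 and 0.320 in cisplatin, against 0.580, 0.650 and 0.640 in controls. It was lower in 3 of 3 cisplatin libraries, by 1.27 on average on the log2 scale (exact p = 0.1, or 0.2 after Benjamini-Hochberg adjustment over the 4 ratios).

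Qprt and Nampt stand for the de novo and the salvage arms. Their ratio was 0.559, 0.614 and 0.927 in cisplatin, against 1.61, 1.79 and 1.64 in controls. Qprt exceeded Nampt in all controls and in no cisplatin library, a mean log2 difference of -1.30 (exact p = 0.1, adjusted 0.2). Nnmt and Nampt both use nicotinamide, and their ratio was 0.0390, 0.0434 and 0.0357 in cisplatin, against 0.0279, 0.0329 and 0.0399 in controls. These groups overlapped (mean log2 difference 0.24, exact p = 0.3, adjusted 0.3), and with a pseudocount of 1 in place of 0.1 the difference was -0.07. Kynu and Haao are neighbouring steps, and their ratio was 0.0299, 0.0307 and 0.0493 in cisplatin, against 0.0312, 0.0132 and 0.0145 in controls. Control replicate 1 lay among the cisplatin values, so the groups overlapped as well (mean log2 difference 0.97, exact p = 0.3, adjusted 0.3).

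**Figure D4:**
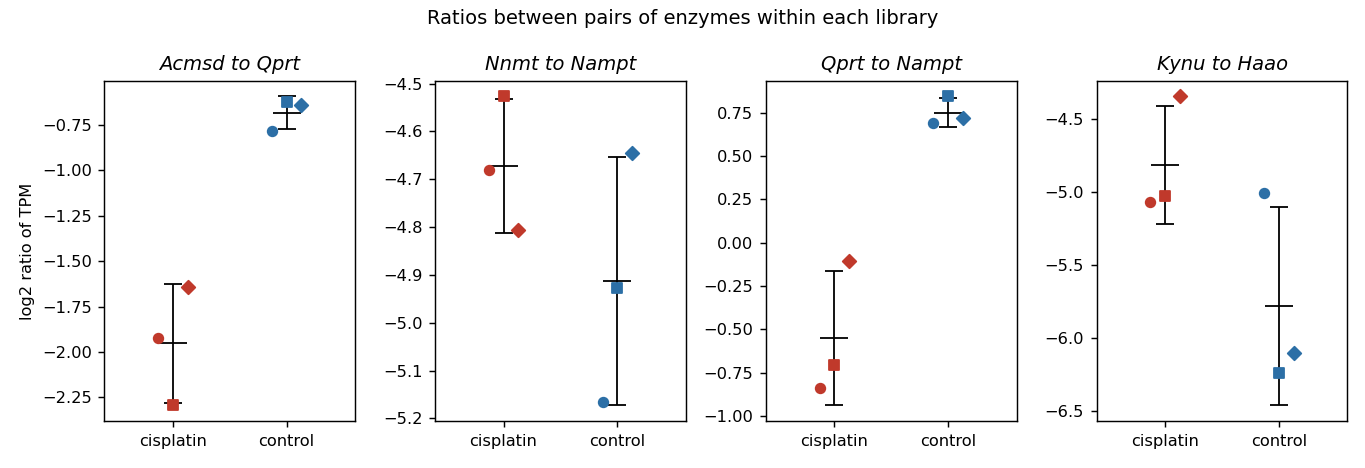
Log2 ratio of TPM + 0.1 between 2 genes in each library (vertical axes, scales differ between panels), for cisplatin and control; symbols mark replicates 1 (circle), 2 (square) and 3 (diamond), and black bars are the mean and SD of 3 libraries. The groups are apart for Acmsd to Qprt and for Qprt to Nampt, and overlap for Nnmt to Nampt and for Kynu to Haao.

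Other genes of NAD metabolism were read from lists of 70 genes, of which 62 passed the count filter. Of these 24 fell and 10 rose, beside 22.2% and 23.1% of all genes, and their median log2 fold change was -0.02. With scaling to library size alone, 16 were lower and 14 higher. That scaling called 2281 lower and 4632 higher of all 14392 tested genes. The shares of all genes with TMM, 22.2% lower and 23.1% higher, stand beside the counts of each list below. At the entry to the kynurenine pathway and on its side branches, 4 of 9 tested genes fell and 1 rose. Aadat, which transaminates kynurenine to kynurenate, had 71.0, 60.6 and 132 CPM in cisplatin, against 389, 382 and 361 CPM in controls (log2 fold change -2.10, SE 0.29; edgeR adjusted p = 0.00135). Ido2, a relative of the first enzyme of the pathway, averaged 4.26 ± 0.90 CPM in cisplatin and 15.4 ± 1.9 CPM in controls (-1.86; adjusted p = 0.000123). Afmid, whose product hydrolyses formylkynurenine, averaged 76.7 ± 31.4 CPM in cisplatin and 147 ± 16 CPM in controls (-0.94; edgeR adjusted p = 0.0320), a call lost without cisplatin replicate 1 or any 1 control (0.0539 to 0.0972). Slc7a5, the gene of a transporter of tryptophan and kynurenine, averaged 6.21 ± 1.56 CPM in cisplatin and 3.43 ± 0.71 CPM in controls (0.86; edgeR adjusted p = 0.0161), a call lost without control replicate 1 (0.0592) or 2 (0.0626). Tdo2 and Ido1, whose products open the ring of tryptophan, were named after their values were seen and did not pass the filter. Tdo2 had 0 to 4 estimated counts in cisplatin libraries and 0 to 3 in controls, and Ido1 had 3 in each cisplatin library and 1 to 4 in controls.

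Of the salvage, riboside and nicotinate genes, 1 of 7 fell and 1 rose. Nmrk1, the nicotinamide riboside kinase gene, averaged 73.6 ± 7.9 CPM in cisplatin and 105 ± 16 CPM in controls (log2 fold change -0.52; edgeR adjusted p = 0.0104). Nt5c, a cytosolic nucleotidase gene, averaged 49.3 ± 1.5 CPM in cisplatin and 30.3 ± 3.4 CPM in controls (0.70; adjusted p = 0.00057). In the list of NADP formation and NAD(P) repair, 5 of 7 genes fell and none rose. The list also held 2 genes of NAD(H) breakdown, Nudt12, which fell, and Nudt13, which was not called. The repair genes Naxd (log2 fold change -0.36) and Naxe (-0.27) were called lower. Nudt12, an NAD(H) pyrophosphatase gene, averaged 37.2 ± 7.4 CPM in cisplatin and 65.9 ± 2.7 CPM in controls (-0.83). Nnt, the mitochondrial transhydrogenase gene, averaged 133 ± 13 CPM in cisplatin and 231 ± 31 CPM in controls (-0.80), and Nadk2, the mitochondrial NAD kinase gene, 51.7 ± 8.5 CPM in cisplatin and 81.4 ± 1.5 CPM in controls (-0.66).

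Carriers of precursors and of NAD fell in 3 of 8 and rose in none. Slc5a8, a sodium-coupled carrier of monocarboxylates that also takes up nicotinate, had 102, 124 and 161 CPM in cisplatin, against 336, 320 and 294 CPM in controls (log2 fold change -1.30; edgeR adjusted p = 0.000521). Slc22a13, also a nicotinate carrier, averaged 89.2 ± 5.1 CPM in cisplatin and 154 ± 33 CPM in controls (-0.78). Slc25a51, which carries NAD into mitochondria, averaged 112 ± 12 CPM in cisplatin and 145 ± 6 CPM in controls (-0.38).

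Poly-ADP-ribose polymerases consume NAD. Their list of 15 genes also held mono-ADP-ribosyltransferases such as Parp14. It further held Parg, the glycohydrolase that takes the polymer apart (log2 fold change 0.12, not called). In this list 6 genes rose and 1 fell, beside 23.1% and 22.2% of all tested genes. Parp14, a mono-ADP-ribosyltransferase gene, had 60.6, 91.8 and 63.0 CPM in cisplatin, against 20.997, 24.0 and 28.3 CPM in controls (log2 fold change 1.56, SE 0.18; edgeR adjusted p = 0.000571). Parp3, a DNA repair enzyme gene, averaged 74.9 ± 2.8 CPM in cisplatin and 33.3 ± 2.8 CPM in controls (1.17), and Parp9, an interferon-induced family member, 49.6 ± 8.3 CPM in cisplatin and 22.8 ± 1.2 CPM in controls (1.12). Parp1, which makes most poly-ADP-ribose after DNA damage, was the member that fell, with 38.5 ± 2.5 CPM in cisplatin and 44.8 ± 1.0 CPM in controls (-0.22; edgeR adjusted p = 0.0406). That call was lost without any 1 library other than cisplatin replicate 1 (0.0576 to 0.121) and with scaling to library size (-0.08, adjusted p = 0.438).

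Sirtuin genes fell in 4 of 7 and rose in 1. Sirt3, the main mitochondrial deacetylase gene, had 49.96, 42.7 and 54.5 CPM in cisplatin, against 86.6, 86.1 and 85.5 CPM in controls (log2 fold change -0.81, SE 0.09; edgeR adjusted p = 0.000322). Sirt7, a nuclear deacylase gene, averaged 46.2 ± 5.7 CPM in cisplatin and 61.1 ± 3.0 CPM in controls (-0.40), and Sirt5, a mitochondrial desuccinylase gene, 12.6 ± 0.6 CPM in cisplatin and 15.5 ± 0.3 CPM in controls (-0.30). The Sirt5 call was lost without cisplatin replicate 2, control replicate 1 or control replicate 3 (edgeR adjusted p = 0.0652 to 0.0751) and with scaling to library size (0.213). Sirt6, a chromatin deacetylase gene, was the sirtuin that rose, with 16.9 ± 1.7 CPM in cisplatin and 12.4 ± 0.5 CPM in controls (0.45).

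In the list of NAD glycohydrolases and ectoenzymes other than Cd38, 3 of 5 tested genes fell and none rose. Those that fell were the ectoenzyme genes Enpp1, Enpp3 and Art3. Bst1, the closest relative of Cd38, was not called (log2 fold change 0.60, edgeR adjusted p = 0.448), and the glycohydrolase gene Sarm1 did not pass the count filter. Enpp1, an ectonucleotide pyrophosphatase gene, averaged 21.4 ± 1.9 CPM in cisplatin and 41.0 ± 4.0 CPM in controls (log2 fold change -0.94; edgeR adjusted p = 0.000231). Its relative Enpp3 averaged 47.3 ± 10.6 CPM in cisplatin and 65.3 ± 5.9 CPM in controls (-0.47), a call lost without any 1 library other than cisplatin replicate 3 (edgeR adjusted p = 0.0505 to 0.130) and with scaling to library size (0.0745). Art3, an ADP-ribosyltransferase family gene, averaged 1.77 ± 0.45 CPM in cisplatin and 3.05 ± 0.37 CPM in controls (-0.78), a call lost without cisplatin replicate 2 or 3 or control replicate 2 or 3 (0.0592 to 0.0832) and with scaling to library size (0.0659).

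The 3 tested genes of nicotinamide breakdown all changed, and not in 1 direction. Of these, Aox1 and Aox3 rest on few counts. Aox1 had 39 to 61 estimated counts in cisplatin libraries and 9 to 17 in controls, and Aox3 had 4.02 to 12.0 in cisplatin and 23.5 to 30.0 in controls. Cyp2e1, a cytochrome that can oxidise nicotinamide, had 138, 91.0 and 568 CPM in cisplatin, against 1522, 1733 and 1649 CPM in controls. Replicate 3 again stood above the other cisplatin libraries, and the log2 fold change was -2.62 (SE 0.71; adjusted p = 0.0265 in edgeR), or -3.84 without it. The call was lost without cisplatin replicate 1 (0.0621) or 2 (0.0795). Of the aldehyde oxidases that oxidise methylnicotinamide, Aox1 averaged 2.66 ± 0.60 CPM in cisplatin and 0.72 ± 0.29 CPM in controls (1.88; adjusted p = 0.00248), and Aox3 0.45 ± 0.20 CPM in cisplatin and 1.62 ± 0.21 CPM in controls (-1.83; adjusted p = 0.00384). Ppargc1a, the coactivator gene known to drive the de novo route in mouse kidney, averaged 56.0 ± 4.4 CPM in cisplatin and 72.2 ± 12.4 CPM in controls (-0.37; edgeR adjusted p = 0.0462). Its groups overlapped, and the call was lost without any 1 library other than control replicate 2 (0.0506 to 0.156) and with scaling to library size (0.221).

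**Figure D5:**
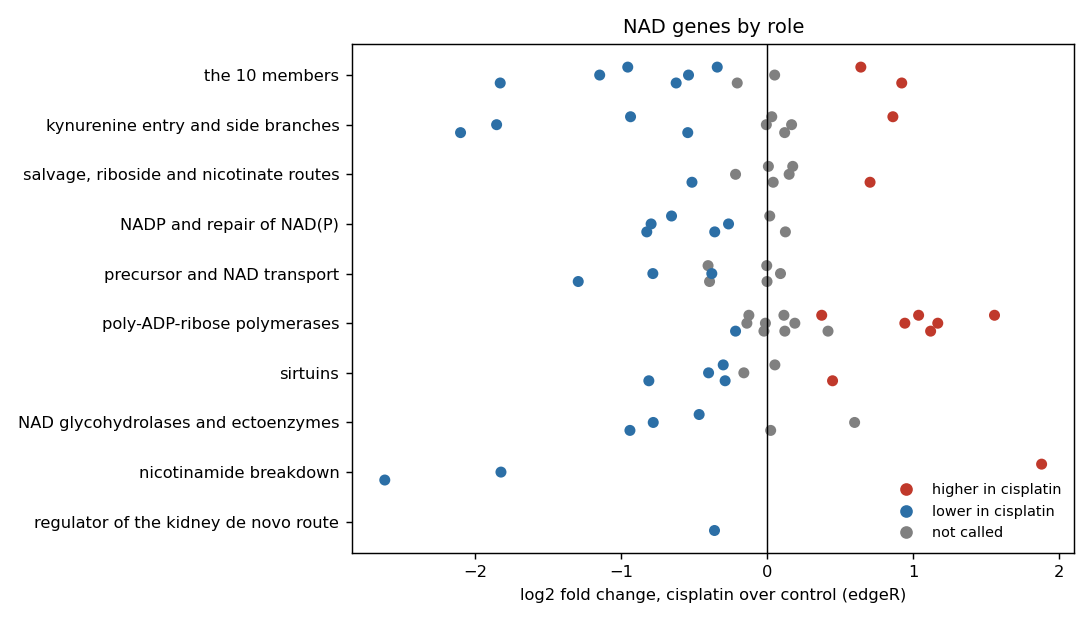
Log2 fold change of cisplatin over control (horizontal axis) of the 10 genes and of the other tested NAD genes by list (rows); each point is 1 gene, red if called higher, blue if called lower and grey if not called, with small vertical offsets for legibility. In the poly-ADP-ribose polymerase row, the longest, 6 of 15 genes rose, beside 23.1% of all tested genes, and 1, Parp1, fell. The NADP and transport rows hold none that rose.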

How the data were processed

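Kidney RNA of 3 cisplatin and 3 control samples was sequenced. HISAT and the build GRCm38.p6 are named in the submitters' processing notes; strandedness, annotation, counting program and the HISAT version are unknown here. The authors deposited, per the file headers, estimated counts, FPKM and TPM per gene. Their estimated counts are unnormalized (66.2% to 67.7% of the values are whole), FPKM is scaled to length and library size, and TPM has 1 total in all libraries. Control columns are named by letters and a number, taken to mean wild type, control and the number in the title.

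After rounding, estimated counts were filtered with filterByExpr (minimum count 10), normalized with TMM and tested with edgeR 4.0.16 (R 4.3.3; robust quasi-likelihood, two-sided, group only, Benjamini-Hochberg over 14392 genes; biological coefficient of variation 0.121), a procedure tested on simulated data. The SE is the log2 fold change divided by the root of F. Exact permutation tests used scipy 1.17.1. limma 3.58.1 on log2 FPKM and DESeq2 1.42.0 were alternatives. Replicate pairs differed by 8.66 to 53.2 times the sampling variance. Positions and promoters are from RefSeq and overlaps from GENCODE M21, both GRCm38; the start regions of 3 of the 10 genes are not reported here.

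The 10 genes and all lists were chosen with earlier results of these data known. Named were the 10 genes, the 3 profiles nearest to Qprt, and from each other NAD list the called genes that changed most, up to 3 per direction, with a mean of 1 CPM or more in the group where they were higher. Genes named beyond this rule, such as Tdo2, Ido1, Nmnat3, Naxd, Naxe and Bst1, were picked after their values were seen. Few counts limit the precision for low genes such as Nnmt, Aox1 and Aox3.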

Additional observations from a re-analysis of the deposited data

How the results depend on the processing

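Over 13 alternatives, the calls of Haao, Acmsd, Nadsyn1 and Nampt were kept in each, and all 10 genes but Kynu kept the sign of their log2 fold change wherever they were tested. Kynu, never called, ranged from -0.93 to 0.27 when 1 library was left out, and turned positive without cisplatin replicate 1 (0.000404), cisplatin replicate 2 (0.11) or control replicate 1 (0.27). Leaving out each library in turn gave 1 to 2 of the 10 genes higher and 3 to 6 lower. Over all tested genes these fits gave 2486 to 3614 higher and 2281 to 3591 lower. A minimum count of 50, under which Nnmt was not tested, gave 1 higher, and 3053 of all 12346 genes then tested. With limma on log2(FPKM + 0.1), 15 other pathway genes were lower in place of 24, and 2040 of all genes in place of 3201. Calls were lost in 8 of 13 alternatives for Nmnat1, 11 for Parp1, 10 each for Enpp3 and Ppargc1a, 7 for Sirt5, 5 for Afmid and 3 for Cyp2e1, and in 7 of 12 for Art3. The Nnmt to Nampt ratio reversed to -0.0673 with a pseudocount of 1, and the other 3 ratios kept their sign in each alternative. Same-numbered samples did not deviate together (correlations 0.0267, -0.141 and -0.144). Differently numbered ones had correlations from -0.0248 to 0.172, so with 3 replicates a group this cannot decide whether samples were paired. With the replicate block, 2 of the 10 genes were higher and 5 lower, Nmnat1 being the call lost. The block also left 17 other pathway genes lower. Of all 14392 tested genes, 2822 were then higher and 2739 lower. The cause of these shifts was not tested. Nnmt rests on 13 to 40 estimated counts a library.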

Other observations

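Bst1, which encodes the ectoenzyme most closely related to Cd38, was picked out after its values were seen. Bst1 had 20.2, 29.7 and 4.62 CPM in cisplatin replicates 1 to 3, against 11.5, 12.8 and 11.9 CPM in control replicates 1 to 3. Cisplatin replicates 1 and 2 lay above every control and replicate 3 below every control. The log2 fold change over the group was 0.60 and was not called (edgeR adjusted p = 0.448). Havcr1, the injury marker, had 1060, 1449 and 420 CPM in cisplatin replicates 1 to 3 and 2.14 to 3.23 CPM in controls, so its order among the 3 cisplatin libraries was the same as that of Bst1. Slc12a1, a thick limb marker called lower, also had that order, with 338, 579 and 260 CPM. Only few orders are possible with 3 libraries, and a link of Bst1 to injury was not tested.

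Genes of the NAD lists and of the cell type and injury marker lists were left out of a search for profiles like that of Qprt. The 3 nearest of the other tested genes, by Euclidean distance between gene-centred log2 CPM over the 6 libraries, were Mfsd4b5 (distance 0.115), Gm3650 (0.145) and Aven (0.160). Mfsd4b5, a major facilitator superfamily gene, averaged 213 ± 65 CPM in cisplatin and 323 ± 20 CPM in controls. Aven, an inhibitor of apoptosis, averaged 11.6 ± 2.9 CPM in cisplatin and 19.0 ± 0.7 CPM in controls.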
